A study of Mus musculus and Acomys cahirinus with 25 samples.

Results

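The data were RNA-seq read counts from dorsal skin wounds of the laboratory mouse and the African spiny mouse, and the genes described here are 32 genes of glycolysis and of the response to low oxygen, out of 24500 genes counted in all 25 libraries. The members were chosen by symbol and role: the sugar and lactate carriers, the enzymes from hexokinase to pyruvate kinase, the enzymes that set the fate of pyruvate, the oxygen-sensing genes Hif1a, Egln1 and Egln3, and 7 known targets of hypoxia-inducible factor. Every member had a row in every library, and levels are given as CPM, the reads of a gene per 1000000 reads counted in genes. A further 41 genes of glycolysis and sugar handling and 48 genes of the hypoxia response served as wider lists.

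All laboratory mouse libraries were from wounds at post-wound day 14 (PWD14), when the wound center can form new hair follicles and the wound margin does not. Wild-type (WT) mice gave 2 libraries of epidermis from the center, 2 of epidermis from the margin, 5 of dermis from the center and 2 of dermis from the margin. A further 2 libraries were center dermis of K14-Cre-Twist1 mice, labelled KO, in which the Cre transgene is driven by the keratin 14 promoter and so removes Twist1 from epidermal cells and not from the dermis that was sequenced. The spiny mouse libraries were WT. Unwounded skin (PWD0) gave 1 library of epidermis and 2 of dermis, PWD14 gave 2 and 1, PWD21 gave 2 of each layer, and PWD28 gave 1 of each. The labels give no age or sex and do not say which libraries shared an animal. The study describes its RNA-seq duplicates as independent, and sharing of an animal between layers or regions is not given. The p-values measure the spread between these libraries.

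Glycolysis splits glucose into pyruvate: a first series of steps spends ATP to phosphorylate and cleave the sugar, a second series returns ATP, and lactate dehydrogenase turns pyruvate into lactate when it does not enter mitochondria. The transcription factor subunit HIF1A is hydroxylated by the oxygen-dependent EGLN enzymes and then destroyed. When oxygen falls, HIF1A persists and raises many glycolytic genes together with its own brakes, such as Egln3. The epidermis has no blood vessels of its own, takes its oxygen from the dermis and the air, and has long been known for high glycolysis.

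The depth was 19413261 to 86532134 reads counted in genes for the 13 laboratory mouse libraries and 5669760 to 34751956 for the 12 spiny mouse libraries. Spiny mouse reads were aligned to the laboratory mouse genome, and 38.0% to 60.5% of them were set aside for low alignment quality against 23.3% to 34.4% in the laboratory mouse, so levels were never compared between the species. Keratinocyte markers summed to 161899 to 226450 CPM in laboratory mouse epidermis and to 93.2 to 868 CPM in WT center dermis, and the collagen genes led every dermis library, as the labels state. One library stood apart: KO replicate 2, labelled center dermis, held 38430 CPM of keratinocyte markers, and KO replicate 1 held 1183 CPM. The unwounded spiny mouse dermis libraries held 18290 and 28404 CPM of the same markers.

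The promoters of the members the results turn on are shown first, because they carry the short motif that hypoxia-inducible factor binds. Each run is 300 bases, from 250 before to 50 after the RefSeq transcription start, read 5′ to 3′ along the gene (GRCm38.p6), and the capitals mark each ACGTG or GCGTG on either strand, so that CACGT and CACGC are the same motifs read from the other strand. The letters CACGTG hold an ACGTG on both strands and count once for each.
Slc2a1 (chr4:119108495-119108794, plus strand): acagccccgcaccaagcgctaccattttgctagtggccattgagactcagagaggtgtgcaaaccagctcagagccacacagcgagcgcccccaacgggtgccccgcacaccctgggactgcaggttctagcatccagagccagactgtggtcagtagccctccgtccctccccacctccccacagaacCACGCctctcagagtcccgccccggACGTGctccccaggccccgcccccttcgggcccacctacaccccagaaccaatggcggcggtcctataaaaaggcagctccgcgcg
Hk2 (chr6:82774405-82774704, minus strand): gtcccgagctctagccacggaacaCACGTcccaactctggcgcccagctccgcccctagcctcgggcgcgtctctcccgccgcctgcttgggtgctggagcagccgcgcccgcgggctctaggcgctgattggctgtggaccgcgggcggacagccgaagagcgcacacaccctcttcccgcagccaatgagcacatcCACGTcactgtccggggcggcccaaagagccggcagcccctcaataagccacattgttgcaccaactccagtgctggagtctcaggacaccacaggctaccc
Ldha (chr7:46845554-46845853, plus strand): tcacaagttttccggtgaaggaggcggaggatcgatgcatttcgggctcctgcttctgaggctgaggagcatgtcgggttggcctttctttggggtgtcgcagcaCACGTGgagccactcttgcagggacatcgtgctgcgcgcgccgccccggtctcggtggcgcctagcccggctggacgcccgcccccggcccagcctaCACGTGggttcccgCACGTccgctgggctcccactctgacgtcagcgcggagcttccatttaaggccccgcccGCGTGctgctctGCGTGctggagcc
Egln3 (chr12:54203825-54204124, minus strand): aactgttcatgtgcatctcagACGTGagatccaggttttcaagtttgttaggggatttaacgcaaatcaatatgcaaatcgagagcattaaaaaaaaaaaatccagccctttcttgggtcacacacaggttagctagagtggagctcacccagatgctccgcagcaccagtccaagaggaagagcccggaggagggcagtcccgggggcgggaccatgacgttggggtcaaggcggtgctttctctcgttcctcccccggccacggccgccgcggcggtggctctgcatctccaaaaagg
Bnip3 (chr7:138909457-138909756, minus strand): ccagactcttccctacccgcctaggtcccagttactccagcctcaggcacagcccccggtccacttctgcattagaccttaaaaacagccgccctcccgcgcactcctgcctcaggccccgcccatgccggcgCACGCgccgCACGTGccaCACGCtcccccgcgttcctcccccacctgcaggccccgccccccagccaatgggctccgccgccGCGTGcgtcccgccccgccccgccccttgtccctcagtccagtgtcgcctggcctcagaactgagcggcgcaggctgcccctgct
Ddit4 (chr10:59951721-59952020, minus strand): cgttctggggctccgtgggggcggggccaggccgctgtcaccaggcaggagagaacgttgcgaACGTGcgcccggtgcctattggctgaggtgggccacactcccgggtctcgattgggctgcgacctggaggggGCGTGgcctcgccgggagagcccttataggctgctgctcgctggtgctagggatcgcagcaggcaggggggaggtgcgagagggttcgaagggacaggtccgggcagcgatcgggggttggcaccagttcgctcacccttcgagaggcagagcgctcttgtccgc
Tpi1 (chr6:124814109-124814408, minus strand): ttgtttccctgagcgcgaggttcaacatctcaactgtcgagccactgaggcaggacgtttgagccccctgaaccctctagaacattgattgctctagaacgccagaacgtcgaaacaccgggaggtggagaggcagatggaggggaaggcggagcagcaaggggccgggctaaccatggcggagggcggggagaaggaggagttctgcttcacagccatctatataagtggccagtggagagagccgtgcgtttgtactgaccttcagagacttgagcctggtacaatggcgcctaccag

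The Ldha promoter held 5 ACGTG and 2 GCGTG, the most of any member, and Bnip3 held 2 and 3. Tpi1 is shown as the contrast: it was higher in epidermis in every layer comparison below, and neither motif stands in its 300 bases. The promoter table matched 30 of the 32 members, with 43 promoters. ACGTG was present in 24 of these 43 promoters (55.8%), and in 19.6% of the 32851 promoters of all genes. Either motif was present in 81.4% of the member promoters and 43.8% of all promoters. Both motifs contain CG, and the member promoters had a median of 20.0 CG against 7.0 for all promoters. Among promoters with 16 to 25 CG, ACGTG stood in 11 of 18 member promoters (61.1%) and in 27.9% of all. A match describes these letters and does not show a bound site.

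The counted levels of 4 payoff enzymes were far below those of their neighbours in the pathway. Gapdh, which oxidizes glyceraldehyde phosphate, was counted at 0.0941 to 2.50 CPM in the 13 laboratory mouse libraries, while Pkm, later in the same pathway, was counted at 282 CPM or more. Of its 75-base stretches, 55.5% also occurred in another annotated gene, with 115 pseudogenes among its 126 partners. The shares were 67.5% for Pgk1, 40.6% for Pgam1 and 44.3% for Eno1, whose main partner Eno1b is a near copy. A read that fits several places is not counted, so the values of these 4 genes are uncertain and are no measure of their mRNA. Bnip3 shared 43.7% of its stretches and kept a level of 142 to 458 CPM in laboratory mouse epidermis. Pfkp shared 14.8%, with the overlapping gene Pitrm1.

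**Figure D1:**
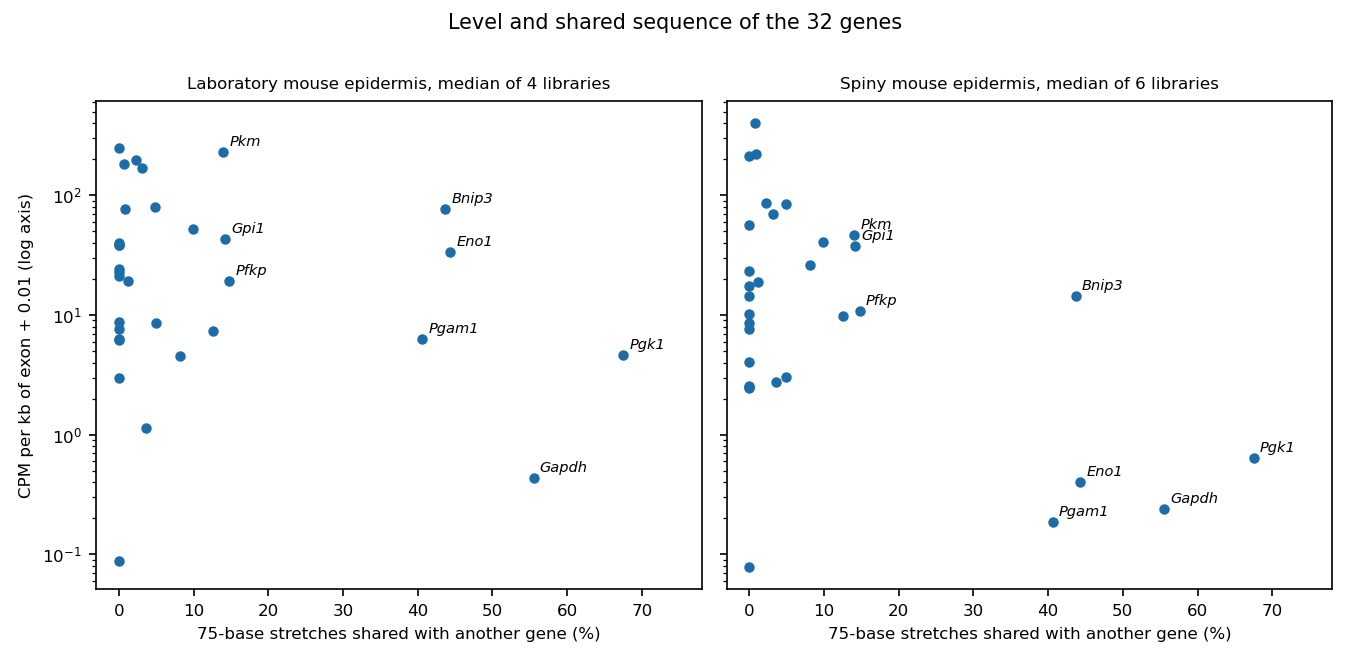
Level per kb of exon (CPM per kb plus 0.01, log axis) against the share of 75-base stretches that also occur in another annotated gene, for the 32 genes (points) in epidermis of each species; genes with over 13% are named. Gapdh, at 55.5%, lies near the bottom of both panels, and Slc2a3, the lowest point, shares 0.0%.

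Levels per kb of exon depend on the exon length taken for each gene. On this scale Egln3 had the highest mean level in laboratory mouse center epidermis at 246 CPM per kb. Tpi1 followed at 237, Pkm at 229, Aldoa at 221 and Ldha at 217. In center dermis the order began with Pkm at 113 and Aldoa at 109 CPM per kb, and Egln3 was near the bottom at 0.902. In spiny mouse epidermis at PWD21 the mean was 398 CPM per kb for Aldoa, 260 for Ddit4 and 247 for Slc2a1. In center epidermis the first 5 lay close together, and the order among them was not tested. That order rests on the length used. Egln3 had 2662 exon bases and 2588 of the stretches counted above for shared sequence. Tpi1 had 2753 exon bases and 1689 such stretches, and the order under another length was not tested.

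The first comparison asked how the members differed between epidermis and dermis of the same wound region or day. They were higher in epidermis almost throughout. At the laboratory mouse wound center 30 of 32 members were higher in epidermis and 0 lower, where 29.3% of all tested genes were higher and 26.8% lower. The 30 include all 5 payoff enzymes, among them Gapdh, Pgk1, Pgam1 and Eno1, whose values are uncertain. At the margin 19 of 32 were higher and 2 lower, against 20.9% and 26.8% of all genes. In the spiny mouse at PWD21, 25 of the 31 tested members were higher and 2 lower, against 29.4% and 33.5%. The median log2 fold change (epidermis over dermis) of the members was 2.6 at the center, 1.76 at the margin and 1.62 in the spiny mouse, and that of all genes was 0.05, -0.16 and -0.06. There were 17 members higher in all 3 comparisons, of 31 tested in all 3, where 13.6% of all genes were: Hk2, Gpi1, Pfkl, Pfkp, Aldoa, Tpi1, Eno1, Pkm, Ldha, Slc2a1, Slc16a1, Pdk1, Hif1a, Egln1, Egln3, Bnip3 and Car12. Eno1, Bnip3 and Pfkp are among the genes with shared sequence given above.

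These fold changes use TMM scaling, which raised the epidermis against the dermis by 0.78 (center), 0.82 (margin) and 0.12 (spiny mouse) on the log2 scale relative to scaling by library size. With library size alone the members split 23 higher and 1 lower at the center, 14 and 4 at the margin and 25 and 2 in the spiny mouse. Under that scaling 17% of all genes were higher and 43% lower at the center, 10.7% and 41.4% at the margin and 26.6% and 36.6% in the spiny mouse. No called member changed sign. In the laboratory mouse the epidermis was read as paired-end libraries and the dermis as single-end libraries, so layer and read type cannot be told apart there. Both layers of the spiny mouse were read alike.

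Among the carriers, the main glucose importer Slc2a1 (GLUT1) was counted at 372 and 385 CPM in center epidermis and at 135 and 169 CPM in margin epidermis. Dermis held 25.8 to 58.2 CPM in the 5 WT center libraries and 21.2 and 27.0 CPM at the margin, and the ranges did not overlap. The log2 fold change of Slc2a1 was 4.4 ± 0.15 (SE, n = 2 per group, adjusted p = 0.000165) at the center and 3.49 ± 0.33 (adjusted p = 2.39e-05) at the margin. In the spiny mouse at PWD21 it was 4.13 ± 0.35 (adjusted p = 5.43e-05), with 942 and 789 CPM in epidermis and 39.1 and 68.4 CPM in dermis. The related importer Slc2a3 (GLUT3) went the other way. It was counted at 0.231 to 0.794 CPM in the 4 laboratory mouse epidermis libraries and at 1.82 to 11.7 CPM in the 7 WT dermis libraries. It was lower in epidermis at the margin (log2 fold change -3.51 ± 0.87, adjusted p = 0.00766) and in the spiny mouse (-1.89 ± 0.49, adjusted p = 0.0118), and at the center it was -2.06 ± 0.78 (adjusted p = 0.0734). Slc16a1, a lactate and pyruvate carrier, was higher in epidermis in all 3 comparisons, with log2 fold changes of 2.50, 2.06 and 1.44. Slc16a3, the lactate exporter of glycolytic cells, was higher only at the center among the 3 fits (1.78 ± 0.38, adjusted p = 0.0128), where library size alone gave 0.99.

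**Figure D2:**
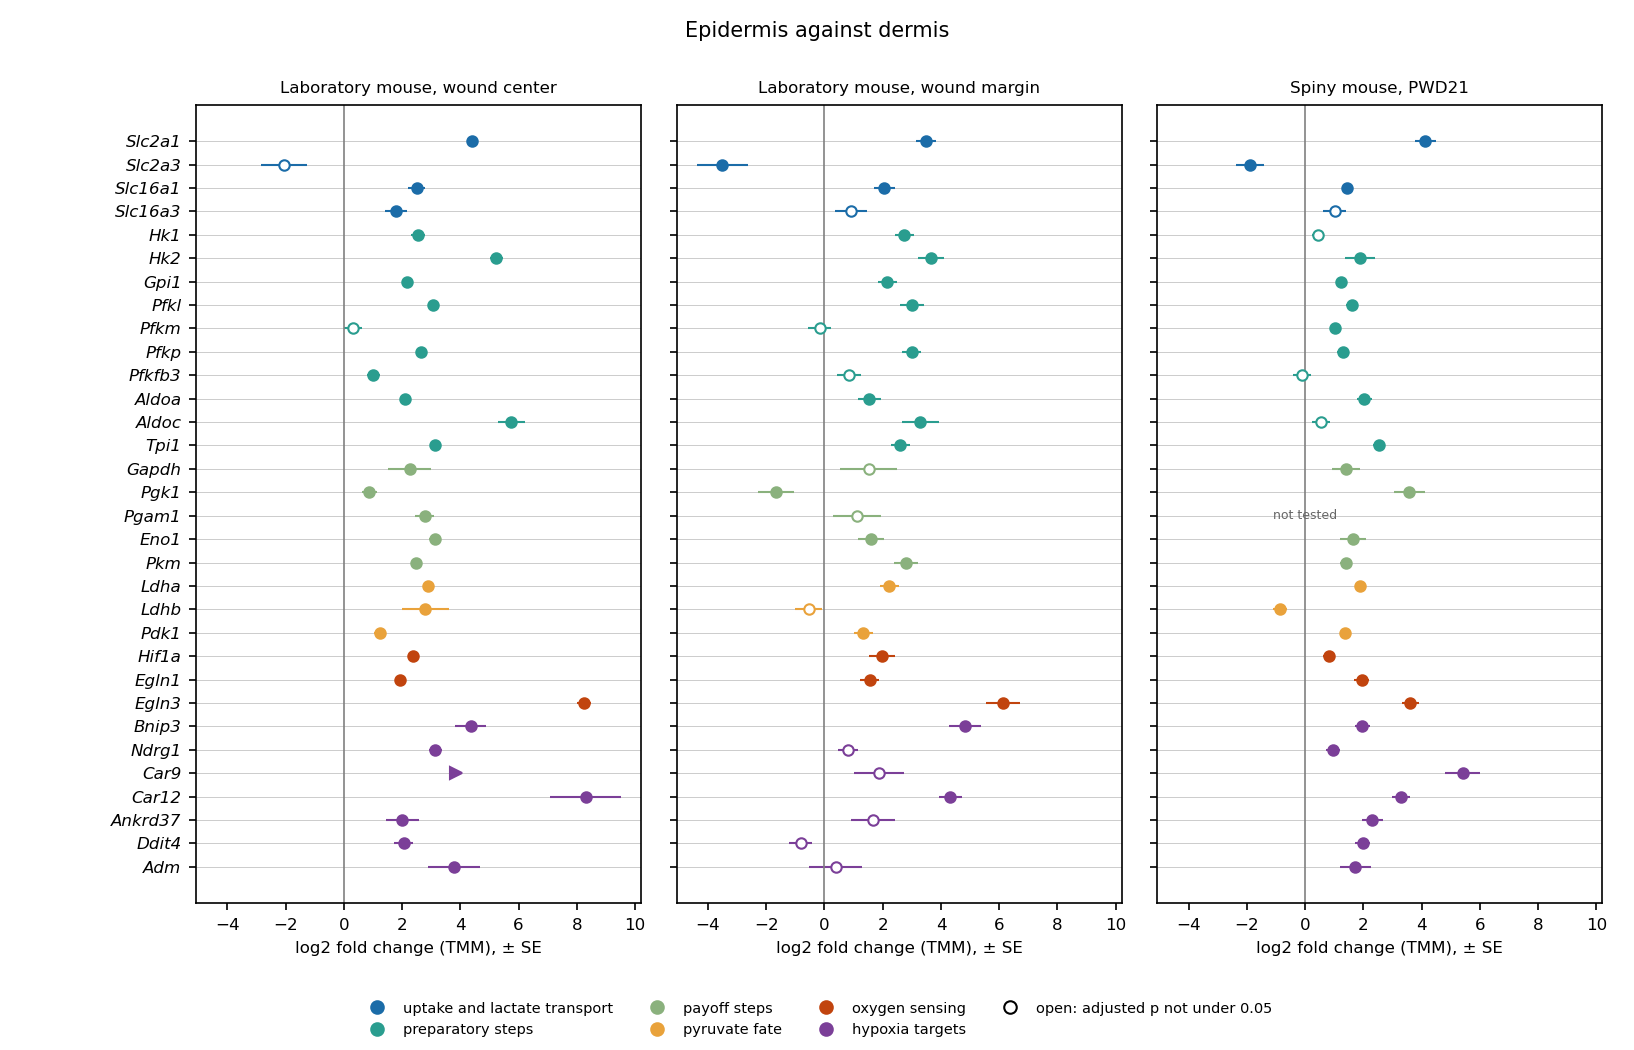
Log2 fold change of epidermis over dermis (TMM scaled, points, with SE as bars) of the 32 members in 3 comparisons, colored by role; filled points have an adjusted p under 0.05, and the triangle marks Car9 at the center, at its lower bound because both dermis libraries had 0 counts. Most points lie to the right of 0 in all 3 panels, and Slc2a3 lies to the left in each.

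Of the preparatory enzymes, Hk2, Gpi1, Pfkl, Pfkp, Aldoa and Tpi1 were higher in epidermis in all 3 comparisons. Hk2, the inducible hexokinase that traps glucose in the cell, was counted at 301 and 349 CPM in center epidermis and at 12.9 to 30.3 CPM in the 5 WT center dermis libraries, which did not overlap. Its log2 fold change was 5.24 ± 0.24 at the center (adjusted p = 0.000169), 3.66 ± 0.46 at the margin (adjusted p = 0.000125) and 1.88 ± 0.52 in the spiny mouse (adjusted p = 0.0148). Hk1, the constitutive hexokinase, differed by 2.55 and 2.74 in the laboratory mouse and by 0.45 ± 0.21 (adjusted p = 0.0998) in the spiny mouse. Of the phosphofructokinases, which catalyse the committed step, Pfkl was higher in all 3 comparisons (3.06, 3.01 and 1.62) and Pfkp too (2.64, 2.99 and 1.29), while the muscle form Pfkm was 0.32 ± 0.30 at the center, -0.17 ± 0.39 at the margin and 1.03 ± 0.18 in the spiny mouse (adjusted p = 0.408, 0.758 and 0.00189). Pfkfb3, which makes the activator of phosphofructokinase, was called at the center alone (1.01 ± 0.21, adjusted p = 0.0114), and library size alone gave 0.22 there. Of the aldolases, which cleave the sugar, Aldoa was higher in all 3 comparisons (2.10, 1.53 and 2.04), and Aldoc was 5.75 and 3.29 higher in the laboratory mouse and 0.55 ± 0.30 (adjusted p = 0.145) in the spiny mouse. Tpi1, which interconverts the triose phosphates, was higher by 3.13, 2.61 and 2.53.

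Among the later enzymes, Pkm, which makes pyruvate, was counted at 1067 and 1222 CPM in center epidermis and 1127 and 1155 CPM in margin epidermis, against 282 to 868 CPM in the 7 WT dermis libraries, and its log2 fold changes were 2.47, 2.80 and 1.40. Ldha, the lactate-forming dehydrogenase, was counted at 703 and 732 CPM in center epidermis and 144 to 250 CPM in center dermis. Its log2 fold change was 2.87 ± 0.16 (adjusted p = 0.000235) at the center, 2.23 ± 0.33 (adjusted p = 0.000359) at the margin and 1.90 ± 0.19 (adjusted p = 0.00013) in the spiny mouse. Its counterpart Ldhb, the form of oxidative tissues, was lower in spiny mouse epidermis (-0.88 ± 0.24, adjusted p = 0.0151), with 16.4 and 16.3 CPM in epidermis and 38.8 and 27.0 CPM in dermis. In the laboratory mouse Ldhb gave 2.80 ± 0.81 at the center (adjusted p = 0.0338), where dermis replicates 1 and 2 held 6.16 and 0.927 CPM. The other WT center dermis libraries, outside that fit, held 11.6 to 14.1 CPM of Ldhb. These values lay within the 7.28 to 16.1 CPM of the laboratory mouse epidermis libraries, so the center difference depends on the dermis libraries used. At the margin Ldhb gave -0.55 ± 0.46 (adjusted p = 0.356). Pdk1, which blocks entry of pyruvate into mitochondria, was higher by 1.25, 1.34 and 1.38. Pgk1 was called higher at the center and in the spiny mouse and lower at the margin, with the uncertainty given above for its reads.

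Egln3, the oxygen sensor induced by HIF1A, was counted at 670 and 642 CPM in center epidermis and 1350 and 599 CPM in margin epidermis. In WT center dermis it was counted at 0 to 4.17 CPM, and at 20.5 and 30.1 CPM in margin dermis. Its log2 fold change was 8.23 ± 0.24 (adjusted p = 0.000165) at the center, 6.14 ± 0.59 (adjusted p = 2.44e-05) at the margin and 3.61 ± 0.29 (adjusted p = 4.00e-05) in the spiny mouse. Egln1, the main hydroxylase of HIF1A, differed by 1.91, 1.55 and 1.94, and Hif1a itself by 2.37, 1.97 and 0.82, all past the threshold. Hif1a mRNA is not a measure of its protein, which is set by destruction.

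Of the hypoxia targets, Car12, a membrane carbonic anhydrase that removes acid, was counted at 284 to 326 CPM in the 4 laboratory mouse epidermis libraries and at 0 to 36.0 CPM in the 7 WT dermis libraries, with log2 fold changes of 8.30 ± 1.21, 4.32 ± 0.40 and 3.3 ± 0.30. Car9, its relative and a classical hypoxia marker, was near the limit of counting: 1.53 to 3.33 CPM in laboratory mouse epidermis and 0 in both center dermis libraries of that fit. Against those libraries alone the center epidermis was at least 14.5-fold higher (floor of 3 counts per library). WT center dermis replicates 3 to 5, outside that fit, held 0 to 1.14 CPM of Car9. Bnip3, a receptor for removing mitochondria, was higher by 4.35, 4.82 and 1.97. Ndrg1, Ankrd37, Ddit4 and Adm were called at the center and in the spiny mouse but not at the margin. At the margin Ddit4, which restrains mTOR signaling, was -0.82 ± 0.38 (adjusted p = 0.104). Its 13.3 and 20.2 CPM in margin epidermis lay below the 41.9 and 64.0 CPM in margin dermis, and library size alone called it lower (-1.65).

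**Figure D3:**
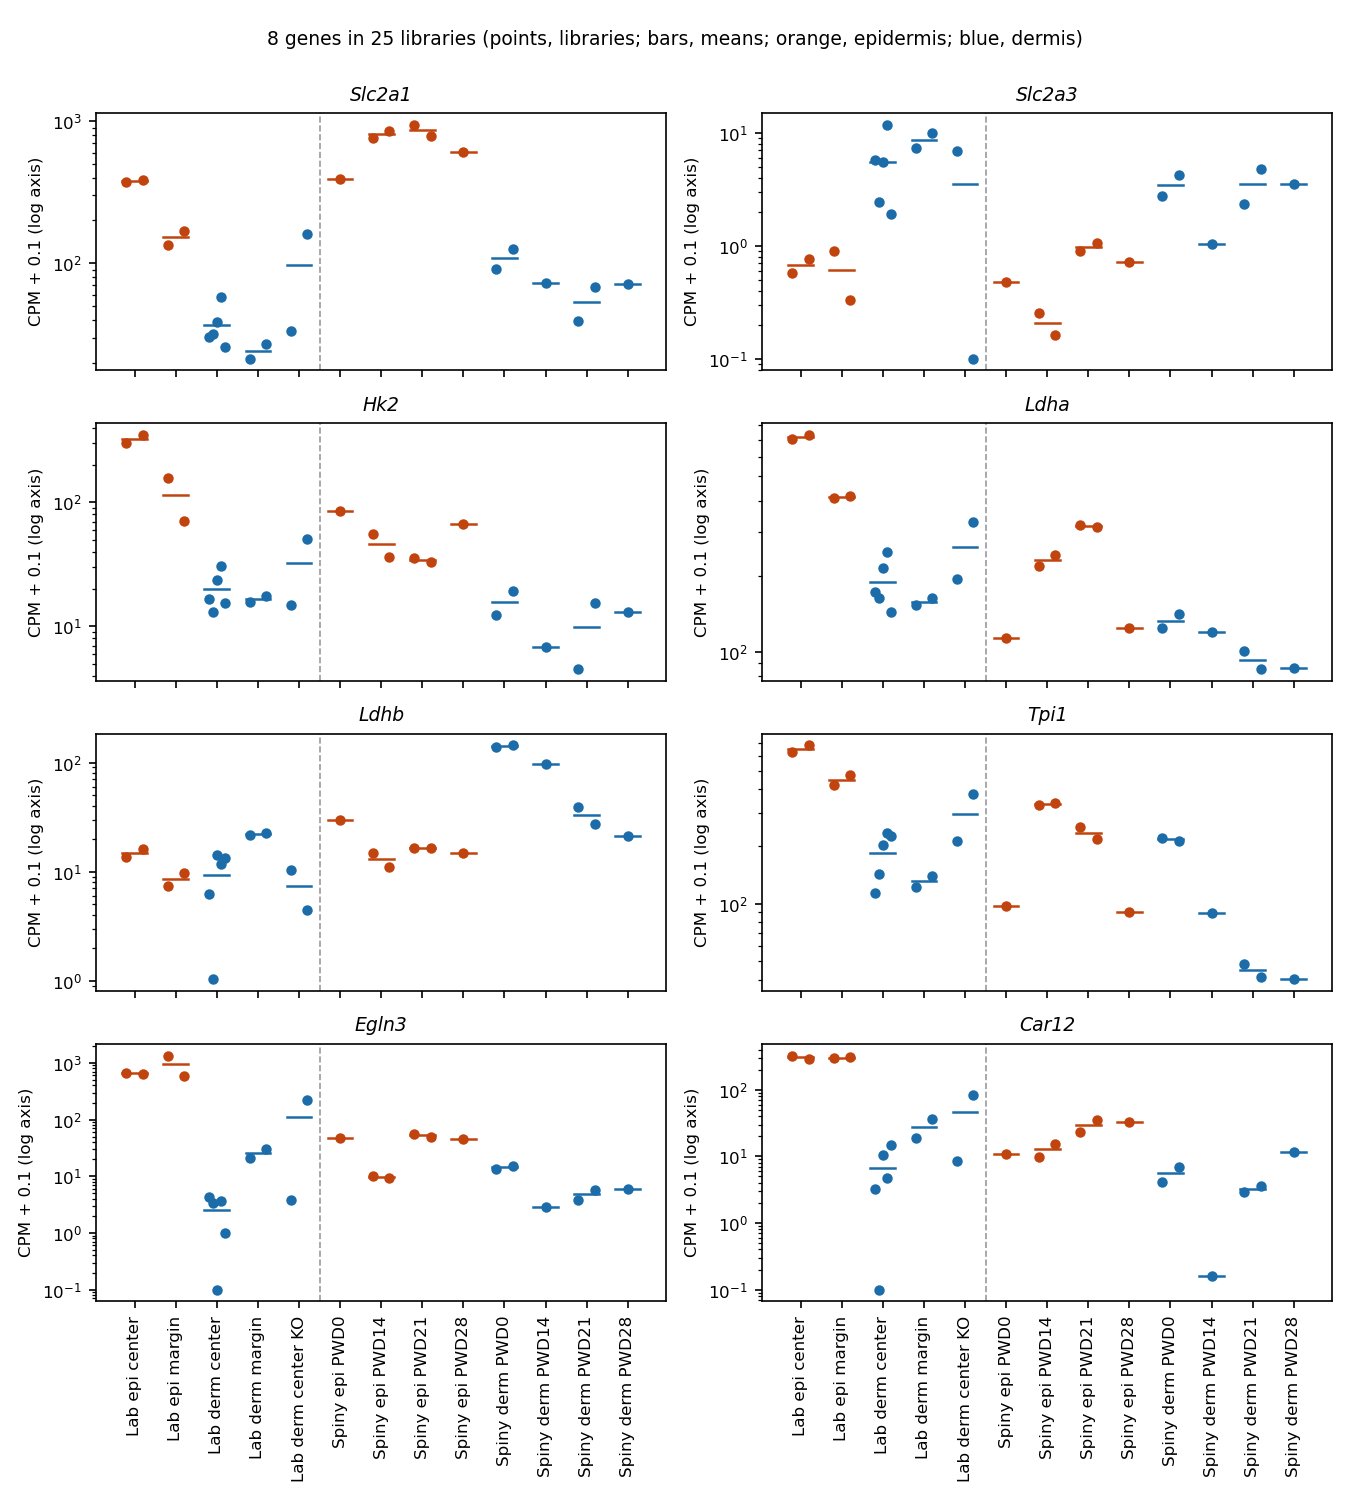
CPM plus 0.1 (log axis) of 8 members in all 25 libraries; points are libraries, short bars group means, orange epidermis and blue dermis, and the dashed line separates laboratory mouse (left, PWD14) from spiny mouse (right), which were not compared. Slc2a1 lies between 135 and 942 CPM in epidermis and between 21.2 and 160 CPM in dermis, whose highest point is KO replicate 2. Slc2a3 shows the opposite order in the WT laboratory mouse libraries, and a KO dermis library lies at 0 CPM. In the spiny mouse its layers overlap, with a dermis minimum of 0.942 CPM and an epidermis maximum of 0.971 CPM.

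The wider lists were split. Of the other glycolysis genes 7 were higher and 9 lower in epidermis at the center among 34 tested, 5 and 13 at the margin among 34, and 9 and 15 in the spiny mouse among 36. The called genes with the largest differences toward dermis at the center were the monocarboxylate carriers Slc16a7, counted at 0.0147 and 0.181 CPM in center epidermis and 6.43 and 6.03 CPM in dermis, and Slc16a4, at 0.206 and 0 against 13 and 1.70 CPM, followed by Hk3, the hexokinase of myeloid cells, at 0.456 and 0.470 against 22.7 and 31.0 CPM. The insulin-responsive carrier Slc2a4 was at 0 in both margin epidermis libraries and at 11.1 and 4.55 CPM in margin dermis. The fructose carrier Slc2a5 was higher in epidermis in all 3, with 14.6 and 11.0 CPM against 0 at the center. Of the other hypoxia genes 19 were higher and 14 lower at the center among 47, 15 and 15 at the margin among 48, and 18 and 21 in the spiny mouse among 48. Ndufa4l2, a HIF target in mitochondria, was counted at 279 and 306 CPM in center epidermis and 16 and 13 CPM in dermis (log2 fold change 5.11 ± 0.21, adjusted p = 0.000168). Nos2, the inducible nitric oxide synthase, and Ppp1r3c, which promotes glycogen storage, were lower in epidermis at the center and at the margin.

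The second comparison asked whether the members differed between the wound center, where hair follicles form, and the margin. In laboratory mouse epidermis 1 of 32 members passed the test, Ddit4, where 0.882% of all genes were higher and 0.360% lower. Ddit4 was counted at 64.3 and 69.7 CPM in the center and 13.3 and 20.2 CPM at the margin, with a log2 fold change of 1.89 ± 0.26 (n = 2 per group, adjusted p = 0.0426). The members as a list lay above 0, with a median log2 fold change of 0.49 and 21 of 32 positive, and the median of all genes was -0.02. In 18 members both center libraries lay above both margin libraries, against 35.8% of all genes, and in 2 both lay below, against 23.2%. At an unadjusted p under 0.05 there were 10 members higher and 1 lower, against 13.1% and 10.4% of all genes.

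The members next in line had large differences that did not pass. Slc2a1 was 372 and 385 CPM in center against 135 and 169 CPM in margin epidermis (log2 fold change 1.22 ± 0.21, adjusted p = 0.0627). The exporter Slc16a3 was 22.7 and 27.5 against 7.99 and 8.98 CPM (1.46 ± 0.28, adjusted p = 0.0773), and Ndrg1, a gene of stress and differentiation, was 483 and 663 against 207 and 132 CPM (1.65 ± 0.34, adjusted p = 0.0875). Hk2, Ldha and Eno1 gave 1.39 ± 0.44, 0.68 ± 0.21 and 1.59 ± 0.47 (adjusted p = 0.151, 0.150 and 0.139). Adm, the vasodilator adrenomedullin, gave 2.23 ± 0.80 (adjusted p = 0.178). Other members pointed the other way: the hypoxia target Bnip3 was 142 and 167 CPM in the center and 458 and 180 CPM at the margin (-1.18 ± 0.48, adjusted p = 0.215), and the carrier Slc16a1 gave -0.81 ± 0.33 (adjusted p = 0.210).

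This count depended on the fit more than any other. DESeq2 called 9 members higher and 0 lower, against 6.45% and 4.21% of all genes: Ddit4, Slc2a1, Slc16a3, Ndrg1, Pgk1, Pgam1, Eno1, Ldha and Hk2. Of these, Pgk1, Pgam1 and Eno1 have the uncertain values given above. The estimate of the quasi-likelihood spread used in edgeR 3 called 0. Without margin replicate 1 there were 17 higher (19.2% of all genes), without margin replicate 2 there were 17 higher and 6 lower (27.5% and 23.4% of all genes), and without either center library there were 0. The margin libraries differed from each other, with Egln3 at 1350 and 599 CPM, Hk2 at 158 and 70.1 CPM and Eno1 at 40.0 and 120 CPM. Fibroblast markers moved with the region, at 6004 and 7268 CPM in center and 1112 and 2837 CPM in margin epidermis, as did adipocyte (484 and 611 against 85.0 and 75.0 CPM), neutrophil (276 and 420 against 163 and 70.3 CPM), macrophage (127 and 131 against 86.0 and 83.8 CPM) and endothelial markers (29.5 to 42.5 against 1.98 to 8.73 CPM), and their part in the result was not tested. In bulk tissue fewer cells of a type and less RNA per cell cannot be told apart.

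**Figure D4:**
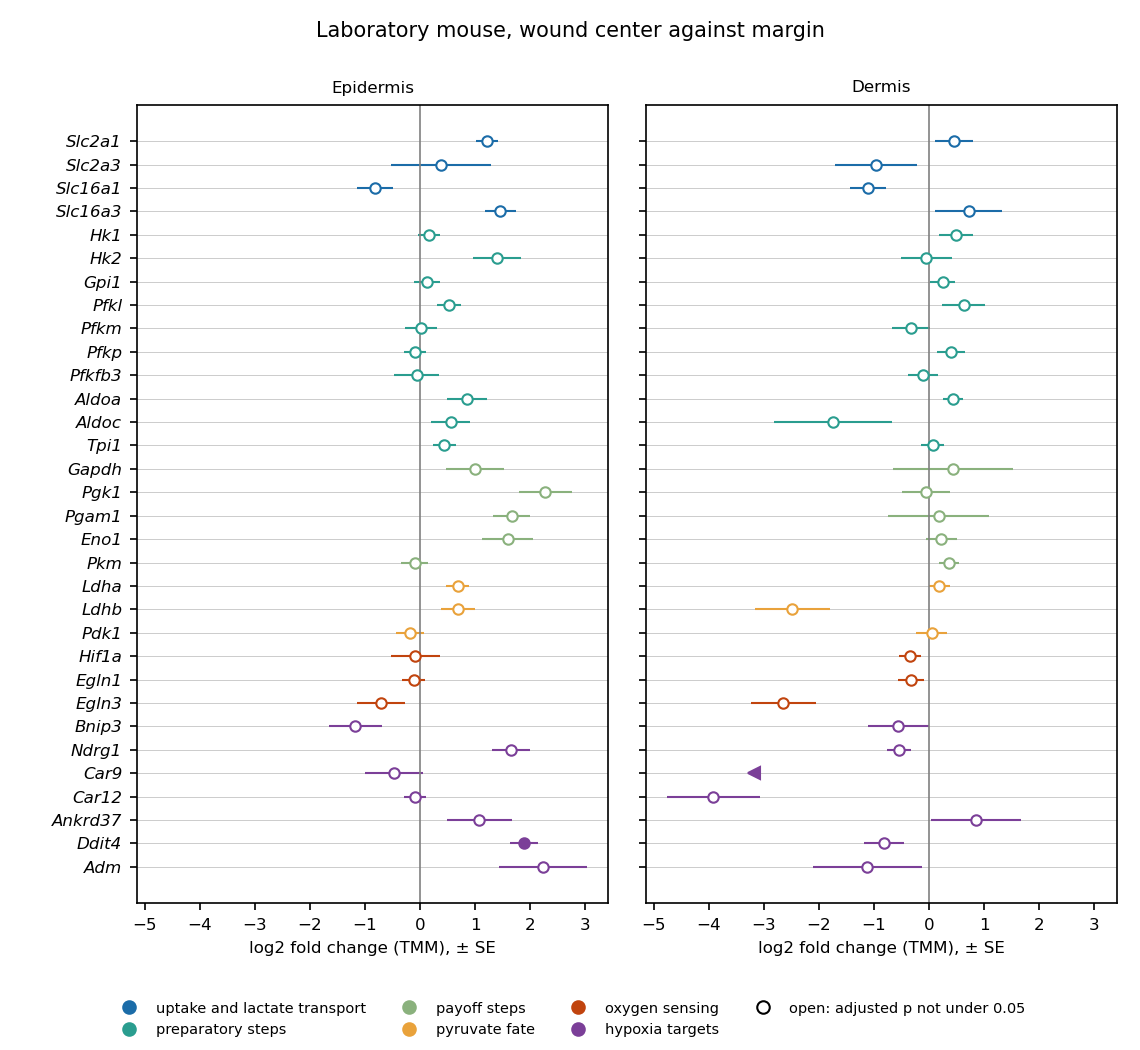
Log2 fold change of wound center over margin (TMM scaled, points, with SE as bars) in laboratory mouse epidermis and dermis, members in the order of their roles; filled points have an adjusted p under 0.05, and the triangle marks Car9 in dermis at its bound because both center libraries had 0 counts. Ddit4 in epidermis is the single filled point, at 1.89, and the dermis panel leans left for Egln3, Car12 and Ldhb.

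In laboratory mouse dermis 0 of 32 members passed for center against margin by edgeR, where 0.116% of all genes were higher and 0.735% lower, and at an unadjusted p under 0.05 there were 1 higher and 7 lower, against 5.11% and 10.7% of all genes. DESeq2 called 1, Egln3, as lower. The 3 lowest p-values belonged to Car12 (-3.92 ± 0.84, adjusted p = 0.0666), Egln3 (-2.65 ± 0.59, adjusted p = 0.0762) and Ldhb (-2.48 ± 0.68, adjusted p = 0.146). Car12 was 3.17 and 0 CPM in the center and 18.8 and 36.0 CPM at the margin, Egln3 was 4.17 and 3.3 against 20.5 and 30.1 CPM, and Ldhb was 6.16 and 0.927 against 21.7 and 22.4 CPM. In these 3 members both center libraries lay below both margin libraries. Keratinocyte markers summed to 2949 and 5356 CPM in margin dermis and hair follicle markers to 869 and 898 CPM, against at most 868 and 10.6 CPM in WT center dermis. Car12 and Egln3 were 284 CPM or more in epidermis, and the part of these markers in the result was not tested. With all 5 WT center libraries Egln3 was called lower (-3.33). The WT center libraries outside the main fit held 11.6 to 14.1 CPM of Ldhb and 4.69 to 14.7 CPM of Car12. These lay above the center libraries of that fit and below both margin libraries. The median of the members was -0.06, near the -0.03 of all genes.

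The difference between the layers was tested itself. The center-margin log2 difference of epidermis minus that of dermis passed for 4 members, all positive, where 3.34% of all genes were positive and 0.135% negative: Ddit4 (2.86 ± 0.50, adjusted p = 0.0106), Ndrg1 (2.34 ± 0.42, adjusted p = 0.0119), Car12 (3.98 ± 0.81, adjusted p = 0.0216) and Ldhb (3.33 ± 0.78, adjusted p = 0.0437). In dermis Ddit4 was 35.7 and 19.6 CPM in the center against 41.9 and 64.0 CPM at the margin, and Ndrg1 was 99.4 and 125 against 188 and 158 CPM, the opposite order to epidermis in these libraries. The other 3 WT center dermis libraries held 56.6 to 72.6 CPM of Ddit4. They held 11.6 to 14.1 CPM of Ldhb, against 6.16 and 0.927 CPM in the center dermis libraries of this fit. With all 5 WT center libraries 1 of the 4 passed, Ndrg1 (2.17, adjusted p = 0.00772), and Ddit4 was 2.04 (adjusted p = 0.106). Car12 was -0.10 in epidermis and -3.92 in dermis. The median of all genes in this fit was 0.31, and the member median was 0.68. Without margin dermis replicate 2 none of the 4 passed, with counts of 0 to 8 over the left-out libraries.

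Of the wider lists Tmem45a, a gene raised by low oxygen, was called in dermis, at 48.2 and 48.6 CPM in the center against 125 and 160 CPM at the margin (-1.46 ± 0.23, adjusted p = 0.0132), and the groups did not overlap. Of the other glycolysis genes 0 passed by edgeR in either layer, with 8 higher and 4 lower at an unadjusted p under 0.05 in epidermis and 3 and 3 in dermis.

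The third comparison set KO center dermis beside the 3 WT center libraries (replicates 3 to 5) that the study set beside it. No member passed by edgeR, where 0.0494% of all genes were higher and 0.00706% lower, and at an unadjusted p under 0.05 there were 4 higher and 1 lower, against 6.98% and 4.54% of all genes. The 3 lowest p-values were those of Egln3 (6.38 ± 1.43, adjusted p = 0.220), Pfkp (0.87 ± 0.27, adjusted p = 0.305) and Pdk1 (1.40 ± 0.50, adjusted p = 0.364). Egln3 was 3.67 and 222 CPM in the KO libraries and 0 to 3.63 CPM in the 3 WT libraries, so that 1 of the 2 KO libraries lay apart. The same library, KO replicate 2, held 160 CPM of Slc2a1 and 84.4 CPM of Car12 against 33.1 and 8.33 CPM in KO replicate 1, together with the keratinocyte markers given above. Without KO replicate 2 there were 0 calls, and without KO replicate 1 there were 8 higher, led by Egln3 at 7.36, and 1 lower, against 10.5% and 11.9% of all genes. DESeq2 called Pfkp higher and Ddit4 and Pfkfb3 lower, against 2.82% and 2.74% of all genes. The part of the keratinocyte markers was not tested.

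The fourth set of comparisons followed the spiny mouse, whose wounds regrow hair across the whole wound bed. In epidermis, PWD14 and PWD21, called the wound days here, were compared with PWD0 and PWD28 pooled. PWD0 was unwounded skin and PWD28 a later wound, so this does not set wounded against unwounded skin. The spread behind these p-values includes the differences between the pooled days. With 4 libraries against 2, 8 of 31 tested members were higher and 0 lower, where 2.56% of all genes were higher and 4.67% lower. The median log2 fold change of the members was 0.92, and that of all genes -0.05. TMM scaling raised the wound days by 0.44 on the log2 scale relative to library size, and with library size alone 6 of the 8 passed in the same direction.

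Ldha was counted at 219 and 244 CPM at PWD14 and 320 and 315 CPM at PWD21, against 114 CPM at PWD0 and 124 CPM at PWD28 (log2 fold change 1.68 ± 0.23, adjusted p = 0.0244). Bnip3 was 29.8 to 39.7 CPM on the wound days and 13.3 and 13.1 CPM on the others (1.92 ± 0.29, adjusted p = 0.0244). Car9 was 5.48 to 8.30 CPM against 1.04 and 0.513 CPM (3.72 ± 0.60, adjusted p = 0.0257). In these 3 members the 4 libraries of PWD14 and PWD21 lay above both others. Ddit4 was 339 to 458 against 195 and 232 CPM (1.46 ± 0.25, adjusted p = 0.0284), and Tpi1 was 219 to 340 against 97 and 90.8 CPM (2.17 ± 0.44, adjusted p = 0.0356). Pkm was 224 to 322 against 181 and 145 CPM (1.18 ± 0.26, adjusted p = 0.0401), Pfkl was 143 to 181 against 90.3 and 68.8 CPM (1.59 ± 0.35, adjusted p = 0.0414), and Slc16a3 was 15.2 to 44.9 against 6.80 and 6.98 CPM (2.78 ± 0.65, adjusted p = 0.0460). The 8 thus hold enzymes of the pathway, the lactate exporter and 3 hypoxia targets. Slc2a1, at 761 to 942 against 394 and 610 CPM, gave 1.25 ± 0.32 (adjusted p = 0.0569).

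Not every member followed. Hk2 was highest at PWD0, at 84.5 CPM, and 32.7 to 55.6 CPM on the wound days. Hk1 was 210 and 163 CPM at PWD0 and PWD28 and 42.8 and 65.2 CPM at PWD14. By group mean in CPM, Hk1, Hk2, Pfkm, Pfkfb3, Pgk1, Ldhb and Ndrg1 were highest at PWD0, and Pgam1 and Car12 at PWD28. The other members were highest at PWD14 or PWD21. Days 0 and 28 had 1 library each: without PWD0, without PWD28, without PWD14 replicate 2 or without PWD21 replicate 1 the count was 0, and without PWD21 replicate 2 it was 10. Over all genes 0 were higher and 0 lower without PWD14 replicate 2, and 0 and 1 without PWD21 replicate 1. Without PWD21 replicate 2 there were 732 and 645 of 13152. Hair follicle markers summed to 27317 CPM in the PWD28 epidermis library and to 48.9 to 1321 CPM in the others. Keratinocyte markers summed to 90996 to 145123 CPM on the wound days and 62705 and 47884 CPM on days 0 and 28, adipocyte markers to 1083 to 6332 against 153 and 185 CPM, and neutrophil markers to 305 to 2618 against 226 and 163 CPM. The part of these cells was not tested.

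**Figure D5:**
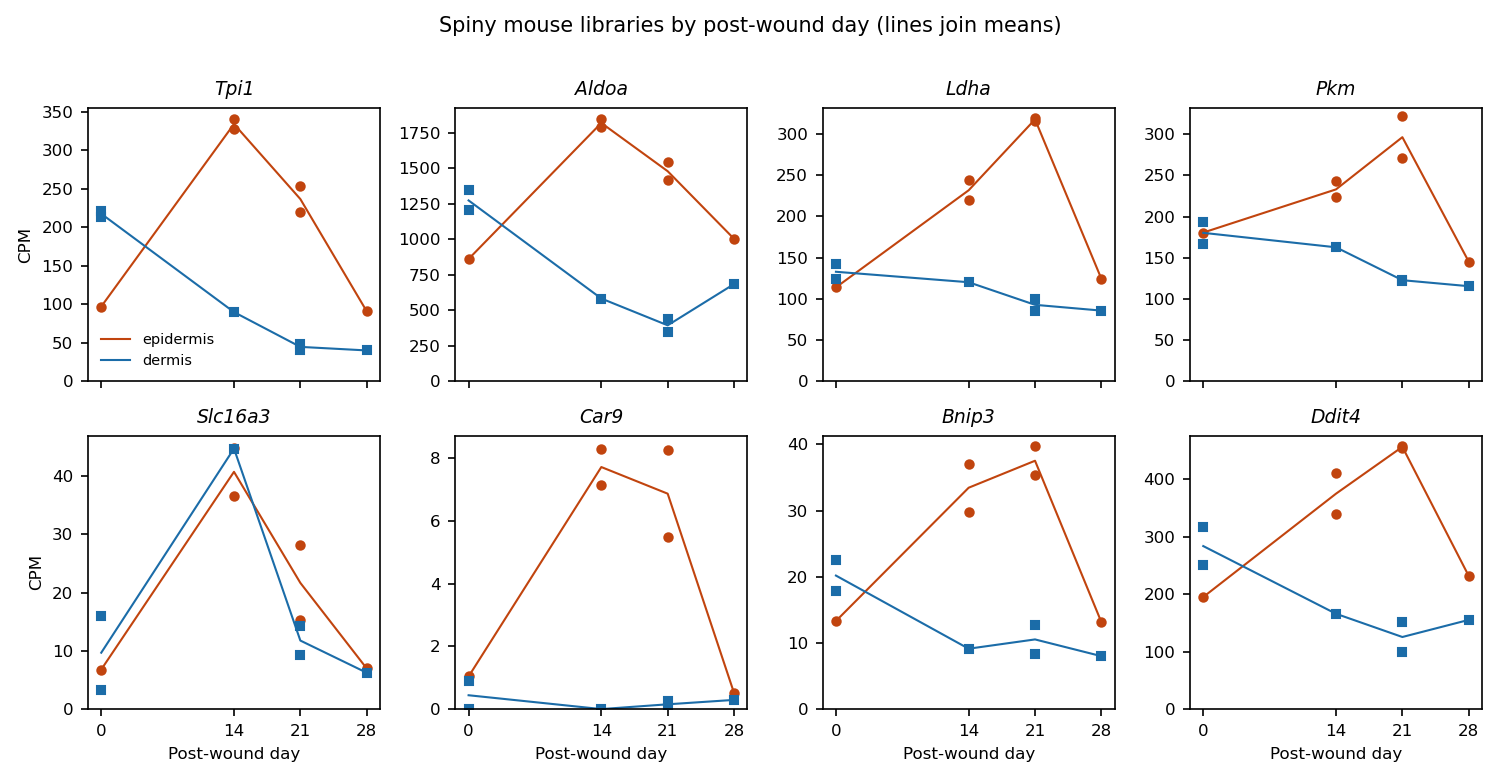
CPM (linear axis) of 8 members in the spiny mouse libraries by post-wound day; circles are epidermis, squares dermis, and lines join the means. The epidermis of Ldha, Bnip3, Ddit4, Car9 and Tpi1 is higher on days 14 and 21 than on days 0 and 28, while the dermis of Tpi1 falls from 221 and 214 CPM on day 0 to 40.0 CPM on day 28.

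Between PWD14 and PWD21 of spiny mouse epidermis the number of members in each direction moved with the scaling, as it did for all genes. With TMM, 12 of 31 members were higher at PWD14 and 3 lower, against 23.4% and 23.2% of all genes. With library size alone 4 were higher and 9 lower, against 10.4% and 44.4% of all genes. TMM moved PWD14 up by 0.55 on the log2 scale relative to library size. The 10 most abundant genes of each library, led by Krt14 at PWD14 and Krt10 at PWD21, took 18.7% and 16.5% of the PWD14 reads and 11.8% and 10.7% of the PWD21 reads. There were 7 members that passed in the same direction under both scalings. Higher at PWD14 were Tpi1 (328 and 340 against 254 and 219 CPM, log2 fold change 1.05 ± 0.16, adjusted p = 0.000444), Aldoc (14.6 and 17.2 against 8.37 and 7.59 CPM, 1.54 ± 0.24, adjusted p = 0.000532), Slc16a3 (44.9 and 36.6 against 28.1 and 15.2 CPM, 1.43 ± 0.28, adjusted p = 0.00184) and Adm (26.5 and 28.5 against 15.6 and 5.02 CPM, 1.88 ± 0.38, adjusted p = 0.00235). Lower at PWD14 were Egln3 (9.92 and 9.06 against 56.2 and 49.3 CPM, -1.93 ± 0.22, adjusted p = 9.24e-05), Hk1 (-1.05 ± 0.19, adjusted p = 0.00135) and Slc16a1 (-0.68 ± 0.18, adjusted p = 0.00895). Neutrophil markers summed to 1643 and 2618 CPM at PWD14 and 305 and 538.1 CPM at PWD21, and adipocyte markers to 5190 and 6332 against 1083 and 1387 CPM, and their part was not tested. The remaining 8, Aldoa, Hk2, Pfkl, Gpi1, Ndrg1, Ankrd37, Egln1 and Slc2a1, passed as higher with TMM, with values of 0.44 to 1.05, and did not pass with library size alone, where Egln1 and Slc2a1 turned to -0.06 and -0.11. In CPM Slc2a1 was 761 and 847 against 942 and 789.

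The wider hypoxia list gave 17 higher and 9 lower of 46 at PWD14 with TMM. The ubiquitin ligase Siah2, which targets EGLN enzymes, was 182 and 195 against 73.3 and 45.7 CPM (2.20 ± 0.22, adjusted p = 5.77e-05), and the cytokine Mif was 343 and 324 against 160 and 137 CPM. The collagen lysyl hydroxylase Plod2 was 0.620 and 2.81 against 16.1 and 40.0 CPM (-3.37 ± 0.55, adjusted p = 0.00069), and Txnip, a brake on glucose uptake, was 8.68 and 5.87 against 43.6 and 57.3 CPM (-2.25 ± 0.26, adjusted p = 0.000104). Of the other glycolysis genes 2 were higher and 8 lower of 30, and among the latter the gluconeogenic enzyme Fbp1 was 0.233 and 0.255 against 9.31 and 5.25 CPM. For the wound days against PWD0 and PWD28, 5 genes of the wider lists were higher and 5 lower. The higher ones were Ndufa4l2 (127 to 173 against 62.2 and 51.7 CPM, 1.89 ± 0.35, adjusted p = 0.0310), Tmem45a (405 to 453 against 176 and 200 CPM), Pgm2, Eno2 and Bsg, the partner of the lactate carriers. Lower were Slc16a7 (log2 fold change -4.54), Zfp395 (-1.99), Pdk2 (-1.63), Ppfia4 (-1.58) and Arnt (-1.32).

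In spiny mouse dermis at PWD21 against PWD0, 9 of 28 tested members were lower and 0 higher, where 14.2% of all genes were lower and 12% higher. The median of the 28 was -0.74, against 0.03 for all genes. Gapdh, Pgk1, Pgam1 and Car9 were too low to test in dermis. Tpi1 fell from 221 and 214 to 48.3 and 40.9 CPM (log2 fold change -2.40 ± 0.29, adjusted p = 0.000982) and Ldhb from 140 and 144 to 38.8 and 27.0 CPM (-2.22 ± 0.30, adjusted p = 0.00164). Aldoa fell from 1202 and 1343 to 439 and 348 CPM (-1.80 ± 0.34, adjusted p = 0.00738), and Aldoc and Adm by 2.13 and 2.01 on the log2 scale. Pfkfb3 (-1.42 ± 0.35), Egln3 (-1.71 ± 0.41), Ddit4 (-1.27 ± 0.31) and Slc2a1 (-1.10 ± 0.34) also fell (adjusted p = 0.0216, 0.0177, 0.0203 and 0.0428). In 17 of the 28 tested members both PWD21 libraries lay below both PWD0 libraries, against 29.5% of all genes. The 9 called members are among the 17. In 3 members both PWD21 libraries lay above, and the share of all genes for that order is not given.

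Markers of some other cells moved the same way between these libraries, and markers of others rose. Keratinocyte markers summed to 28404 and 18290 CPM at PWD0 and 1334 and 1938 CPM at PWD21. Muscle markers summed to 887 and 2160 against 350 and 456 CPM, and adipocyte markers to 1238 and 1226 against 167 and 305 CPM. Fibroblast markers rose from 114342 and 78025 to 155440 and 188863 CPM, and endothelial markers from 174 and 335 to 566 and 760 CPM. At PWD0 the mean of dermis was above the 1 epidermis library for Ldhb (142 against 29.6 CPM), Tpi1 and Aldoa, and below it for Slc2a1 (109 against 394 CPM) and Egln3 (14.3 against 48.2 CPM). The part of these cells in the result was not tested. Of the wider lists, 4 glycolysis genes were higher and 12 lower of 35, and 6 hypoxia genes were higher and 7 lower of 47. Among the lower ones Pck1, the first enzyme of glucose synthesis and abundant in adipocytes, went from 18.5 and 14.8 to 0.0456 and 0.173 CPM (-7.17 ± 0.65, adjusted p = 0.000357), and Ndufa4l2 from 57.0 and 39.5 to 11.2 and 11.5 CPM (-2.23 ± 0.36, adjusted p = 0.00358). Leaving out PWD21 replicate 1 left 2 calls and leaving out PWD21 replicate 2 left 4.

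With the days pooled in the same way, 0 of 28 members passed in spiny mouse dermis by edgeR and by DESeq2, where 0.341% of all genes were higher and 1.42% lower. At an unadjusted p under 0.05, 0 were higher and 3 lower, against 7.93% and 11.5% of all genes: Egln3 (-1.48 ± 0.52, adjusted p = 0.171), Ndrg1 (-1.26 ± 0.44, adjusted p = 0.172) and Aldoa (-1.16 ± 0.47, adjusted p = 0.227). Without PWD28, 4 were lower, where 1074 of 14733 tested genes were lower. The group means of Aldoa at PWD0, 14, 21 and 28 were 1272, 582, 394 and 684 CPM. Those of Egln3 were 14.3, 2.77, 4.67 and 5.85 CPM, and those of Ndrg1 231, 36.6, 136 and 294 CPM. The dermis at PWD14 and at PWD28 had 1 library each.

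The difference between the layers passed for 6 members, all with a larger rise on the wound days in epidermis, where 2.64% of all genes were positive and 2.10% negative. They were Bnip3 (2.56 ± 0.58, adjusted p = 0.0286), Ddit4 (2.16 ± 0.50, adjusted p = 0.0314), Ldha (1.80 ± 0.42, adjusted p = 0.0316), Aldoa (2.52 ± 0.62, adjusted p = 0.0402), Tpi1 (3.49 ± 0.90, adjusted p = 0.0465) and Car9 (5.23 ± 1.44, adjusted p = 0.0490), whose dermis libraries held 0 to 0.882 CPM. The median of the 32 members was 1.26 and that of all genes -0.03, and 29 of the 32 were positive. With library size alone Aldoa and Tpi1 passed (2.06 and 3.01). Leaving out single libraries gave 0 to 11 calls. It was 0 without PWD0, PWD14 replicate 2, PWD21 replicate 1 or PWD28 of the epidermis, and without PWD0 replicate 2 or PWD21 replicate 1 of the dermis.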

How the data were processed

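RNA-seq was made from hand-separated epidermis and dermis of dorsal full-thickness wounds, with 13 laboratory mouse and 12 spiny mouse libraries, of which the spiny mouse tissue was loosened with trypsin-EDTA. Per the labels, the authors aligned reads of both species to mm10 (STAR 2.4.1d) and the deposited values are raw counts per gene (HTSeq 0.6.0). The study's supplementary records give slightly different days for some spiny mouse libraries, and the days of the labels were used. Laboratory mouse epidermis was read strand-specific and paired-end, its dermis strand-specific and single-end, and the spiny mouse single-end without strand. The 5 summary lines of each file, such as reads of low alignment quality, were left out of totals.

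Groups come from the labels. WT center dermis replicates 1 and 2 were compared with the margin and the epidermis, and replicates 3 to 5 with the KO, as in the study. The 32 members and the wider lists were chosen with earlier results of these data known. The text names all members by symbol, gives full statistics for those with an adjusted p under 0.05 or else the 3 with the lowest p, and from the wider lists at most 3 genes per direction with the largest change among those called with groups that do not overlap.

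Each comparison was fitted over all genes with edgeR 4.0.16 (R 4.3.3): filterByExpr (minimum count 10, total 15), TMM scaling, the quasi-likelihood F-test, and Benjamini-Hochberg adjustment over all genes tested, with a call at an adjusted p under 0.05. Standard errors were derived from the same fit. Whole-number depths of 5669760 to 86532134 reads limit low genes, and a floor of 3 counts per library was used for folds against 0. CPM uses all gene reads without TMM. Exon lengths and shared 75-base stretches come from GENCODE M21, and promoters from RefSeq (GRCm38.p6). The scripts were tested on simulated counts. Alternatives were DESeq2 1.42.0, RLE scaling, library size alone, no filter, a minimum of 10 counts per library, a single fit over each species, all 5 WT center dermis libraries, no PWD28 and leaving out each library. The Twist1 deletion is epidermal and is not checked by dermal counts. 1 gene of the wider hypoxia list is not reported here.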

Additional observations from a re-analysis of the deposited data

Results flagged for a closer look

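Slc16a3, the lactate exporter, was 70.0 CPM in 1 of the 5 WT center dermis libraries (replicate 4) and 8.34 to 24.7 CPM in the other 4. The same library held 959 CPM of neutrophil markers against 33.9 to 220.4 CPM in the other 4, whose part was not tested. Its gap to the nearest library was 0.734 of the whole range, past Dixon's critical value. It was 1 of 32 groups checked, and chance marks about 1 in 20.

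The center-margin difference of epidermis differed from that of laboratory mouse dermis by 3.98 for Car12, 2.86 for Ddit4, 3.33 for Ldhb and 2.34 for Ndrg1 on the log2 scale (edgeR interaction term, adjusted p = 0.0216, 0.0106, 0.0437 and 0.0119). The rise on PWD14 and PWD21 of spiny mouse epidermis differed from that of dermis by 2.52 for Aldoa, 2.56 for Bnip3, 5.23 for Car9, 2.16 for Ddit4, 1.80 for Ldha and 3.49 for Tpi1 (adjusted p = 0.0402, 0.0286, 0.0490, 0.0314, 0.0316 and 0.0465). Ddit4 is in both sets.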

How the results depend on the processing

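Counts here are members called, and each cause was not tested unless fewer libraries or genes were used. Members not called in the main fit are outside the next count, and some of them changed sign. In laboratory mouse epidermis Hif1a gave 0.76 without margin replicate 1 and -0.60 without margin replicate 2, and Pfkfb3 gave 0.63 and -0.53. Of 1450 values under the alternatives for members called in the main fit, 1205 kept direction and side of the threshold. A further 243 no longer passed and 2 reversed. The 2 were Egln1 (-0.063) and Slc2a1 (-0.11) for PWD14 against PWD21 with library size alone. That setting gave 13 calls (4 higher, 9 lower) in place of 15, of which 7 were shared in the same direction, and 2 in place of 6 for the spiny mouse layer difference. With DESeq2 there were 9 in place of 1 for laboratory mouse epidermis, center against margin, 1 in place of 0 for dermis, 3 in place of 0 for the KO and 15 in place of 8 for spiny mouse epidermis on the wound days. All libraries in one fit gave 3 (laboratory mouse epidermis), 7 (PWD14 against PWD21), 1 (KO), 16 (wound days, epidermis), 6 (wound days, dermis), 2 (laboratory mouse layer difference) and 13 (spiny mouse layer difference). Over all genes the wound days in epidermis gave 343 higher and 627 lower of 13413 in the main fit. DESeq2 gave 1749 and 1317, and the one fit 2646 and 2869 of 15942. In dermis the main fit gave 48 and 200 of 14096, and the one fit 1443 and 1989 of 15942. For the other counts of this paragraph the share over all genes is not given here. At least 10 counts in every library gave 1 for laboratory mouse dermis and 2 for the layer difference. No filter gave 5 for the wound days in epidermis. The edgeR 3 estimate, chosen after seeing the data, gave 0 for laboratory mouse epidermis, 5 for the wound days in epidermis and 2 for the laboratory mouse layer difference. All 5 WT center libraries gave 1 each for dermis, the KO and the layer difference. Without PWD28 the wound days gave 0 in epidermis and 4 in dermis. Leaving out 1 library gave 0 to 23 calls for laboratory mouse epidermis, 0 to 2 for dermis, 0 to 9 for the KO, 8 to 16 for PWD14 against PWD21, 2 to 13 for spiny mouse dermis, 0 to 10 and 0 to 4 for the wound days in epidermis and dermis, 24 to 31, 17 to 24 and 22 to 29 for the layers at the center, margin and PWD21, and 0 to 8 and 0 to 11 for the layer differences. Where this left 1 library in a group, it was assumed to vary like the others. No paired analysis was possible because the replicate numbers are names in accession order.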

Other observations

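The 5 WT center dermis libraries differed by set. In 13 of the 32 members replicates 3 to 5 all lay above replicates 1 and 2, in 4 all lay below, and in 15 the ranges overlapped. Of all genes tested in both center dermis comparisons, 17.1% lay above and 21.4% below. Pkm was 717, 868 and 528 CPM in replicates 3 to 5 and 364 and 345 CPM in replicates 1 and 2, and Gpi1 was 216, 248 and 223 against 89.0 and 125 CPM.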
